A study of Mus musculus with 80 samples.

Results

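The state that wild-type mouse embryonic stem cells (ESCs) of the line E14 had reached after 72 h in 2i was compared with the state of the same line in serum. The comparison used 6 of the 80 samples of the series, 3 RNA-seq libraries of serum cultures and 3 of cultures held in 2i for 72 h. Serum cultures grew with LIF, and 2i cultures grew without serum in N2B27 medium with LIF, the MEK inhibitor PD0325901 and the GSK3 inhibitor CHIR99021. All rows of the deposited expression table that passed a filter on low values were members, 12306 of 25965 genes. Each value is a log2 expression level corrected for gene length and library depth, so a difference of 1 is a doubling. The labels give no animal, sex or passage, and do not say what separates the replicates. The study calls the replicates of its expression values biological and does not say more, so p-values measure the spread between these libraries. All cells were bulk populations of a single line, in which fewer cells of a type and less RNA per cell cannot be told apart.

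Serum supports ESCs with a mixture of growth factors, and cultures in it hold cells of differing readiness to differentiate. In 2i, blocking MEK removes the signal through ERK, and blocking GSK3 stabilises beta-catenin, the effector of the Wnt pathway. Cells kept this way resemble the naive epiblast of the blastocyst, which is marked by factors such as Nanog, Klf4 and Prdm14 and by low DNA methylation. From there the epiblast passes through a formative to a primed state, marked by Otx2, Pou3f1 and Fgf5, before gastrulation.

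The defining markers of ESCs were present in every library. The 5 pluripotency markers Pou5f1, Sox2, Nanog, Zfp42 and Esrrb summed to 795 to 877 on the linear scale in serum and to 925 to 1250 at 72 h, and without Nanog to 696 to 763 and 612 to 857, which overlap. Primitive endoderm markers (Gata4, Gata6, Sox17, Sox7 and Pdgfra) summed to 2.51 to 2.93 and 2.86 to 3.29, with Sox17, Sox7 and Pdgfra too low to be tested. Mesoderm markers (T, Mixl1, Eomes and Mesp1) summed to 2.73 to 3.50 and 2.93 to 3.08, and without Eomes to 1.31 to 1.73 and 0.858 to 1.12. Neural markers summed to 49.8 to 52.7 and 32.6 to 36.7, and fibroblast markers to 7.64 to 9.77 and 4.52 to 4.96. The total number of reads per library is unknown. The 72 h replicate 2 stood apart by gene span, with short genes higher and long genes lower. With genes in 5 equal groups by span, its median over the shortest group exceeded that over the longest by 1.32, against 0.80 and 0.53 in the other 72 h libraries and 0.58 to 0.78 in serum. Genes of the mitochondrial genome took at most 15.7% of the summed linear values in a serum library and 19.2% to 23.4% at 72 h. Their part in the results was not tested.

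Of the genes tested with limma, 6429 passed an adjusted p of 0.05 (52.2%), 3165 higher (25.7%) and 3264 lower (26.5%) at 72 h. With a log2 change of 1 or more also required, 2579 passed (21.0%), 1403 higher (11.4%) and 1176 lower (9.56%). The serum and 72 h libraries did not overlap for 7815 genes (63.5%). The 33 lists of pathway and identity genes, with 663 distinct tested genes, are read against these shares and against a median change of -0.005 over all genes tested. Members rising or falling at shares near these are not read as a result about a list. The filter counts all 12 libraries. A gene silent in serum could enter the test only through libraries in 2i. One silent at 72 h could enter only through serum or earlier libraries in 2i. For lists with 2 or more such genes the counts without the filter are also given, to be read against 20.4% of genes called higher and 20.7% lower among 19814.

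**Figure D1:**
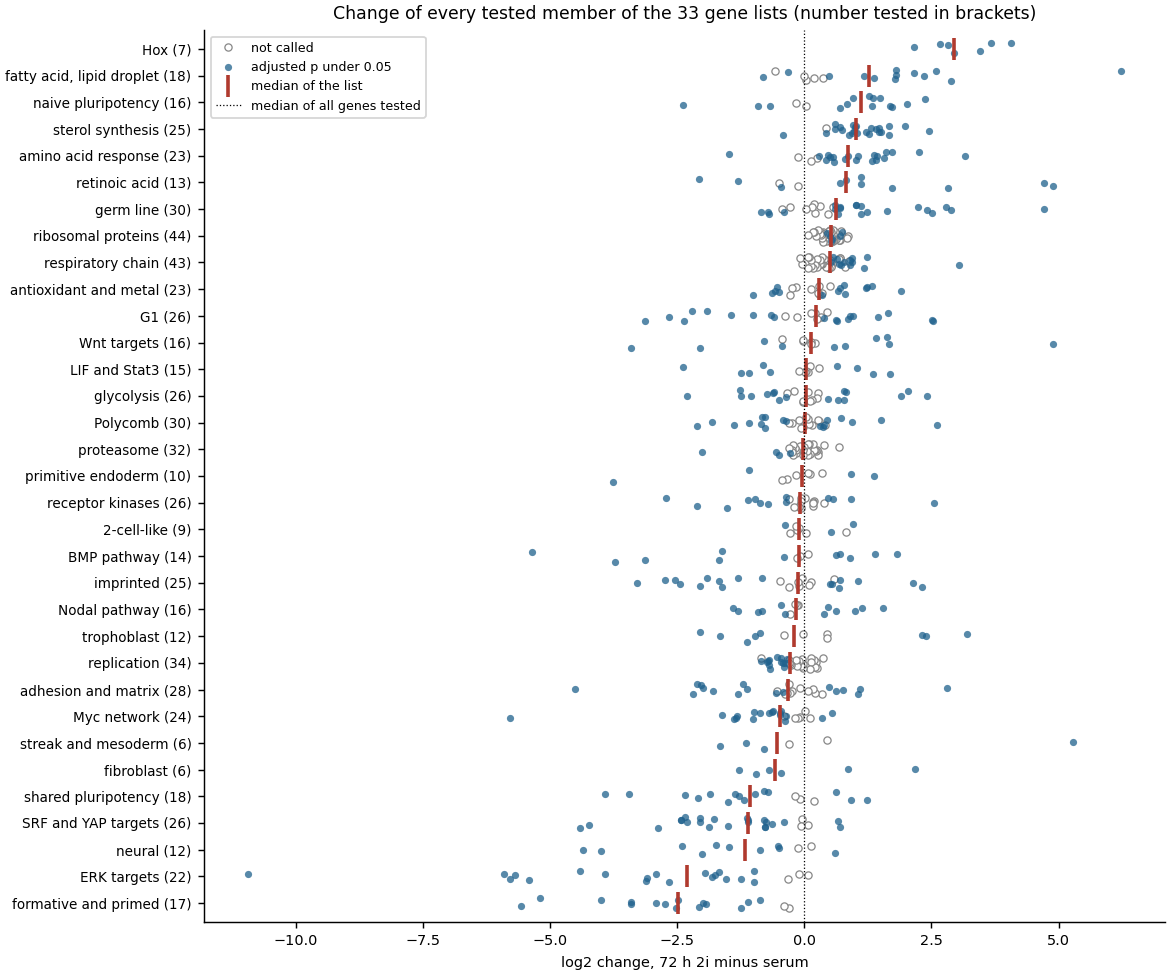
Log2 change (72 h 2i minus serum, horizontal axis) of every tested member of the 33 lists, ordered by the list median (red tick). Filled points passed an adjusted p of 0.05, and the dotted line is the median of all genes tested. Formative and ERK target genes lie lowest (medians -2.48 and -2.31, or -2.50 and -1.95 without the filter). Sterol and lipid genes are among the highest (1.02 and 1.27, or 1.01 and 1.18 without the filter).

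Of the 16 naive pluripotency genes, all tested, 11 rose, 3 fell and 2 did not pass, with a median change of 1.11. Prdm14, a repressor of the de novo methyltransferases and of FGF signalling, read 1.62, 1.60 and 2.09 in serum and 4.21, 4.07 and 4.14 at 72 h (log2 change 2.37, SE 0.14, limma adjusted p 1.31e-07). Dppa3, a maternal factor that guards methylation in the early embryo, read 3.84, 4.01 and 3.75 in serum and 5.88, 6.26 and 5.52 at 72 h (log2 change 2.02, SE 0.26, limma adjusted p 5.77e-05). In both genes every 72 h library lay above every serum library. Nanog read 6.87, 6.83 and 6.62 in serum and 8.56, 8.63 and 8.29 at 72 h (log2 change 1.72, SE 0.17, limma adjusted p 9.03e-06). The transcription factors Tfcp2l1 (1.68), Tbx3 (1.49), Klf4 (1.35), Klf2 (1.33), Esrrb (0.95), Nr5a2 (0.83) and Sox15 (0.71) also rose, as did the F-box gene Fbxo15 (1.27). The gain was not shared by the whole network. Gbx2, a homeobox gene downstream of Stat3, read 3.88, 3.78 and 4.05 in serum and 1.53, 1.72 and 1.29 at 72 h (log2 change -2.39, SE 0.14, limma adjusted p 1.21e-07), its groups far apart. Zfp42 (Rex1), often used to mark naive cells, fell by 0.67 and Nr0b1 (Dax1) by 0.92 on the log2 scale. Klf5 (6.36, 6.23 and 6.37 in serum and 6.40, 5.77 and 6.30 at 72 h) and Tcl1 (3.77, 3.78 and 3.89 in serum and 3.93, 3.96 and 3.62 at 72 h) overlapped between the media.

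Most of the factors listed as shared by naive and primed cells fell. Of 18, all tested, 12 fell, 3 rose and 3 did not pass, with a median change of -1.08. Pou5f1 (Oct4) read 8.35, 8.39 and 8.14 in serum and 8.11, 8.80 and 7.73 at 72 h, a change of -0.08 (SE 0.33, limma adjusted p 0.850), and the 72 h libraries spread to both sides of serum. With quantile normalisation Pou5f1 was called lower (-0.38, limma adjusted p 0.0271). Sox2 read 7.19, 7.21 and 7.44 in serum and 7.56, 7.41 and 7.44 at 72 h (log2 change 0.18, SE 0.11, limma adjusted p 0.189), and the Nodal-family ligand Gdf3 changed by -0.18 without passing. Against these, Lin28a, an RNA-binding protein that blocks let-7 maturation, read 6.69, 6.63 and 6.85 in serum and 2.83, 2.83 and 2.78 at 72 h (log2 change -3.91, SE 0.10, limma adjusted p 6.14e-10). Utf1, a chromatin factor at bivalent genes, read 7.79, 7.71 and 7.89 in serum and 4.50, 4.29 and 4.29 at 72 h (log2 change -3.44, SE 0.12, limma adjusted p 3.57e-09). Both were far below serum in every 72 h library. The let-7 target Trim71 (-2.09), L1td1 (-1.85), Foxd3 (-1.50), Zfp281 (-1.37), Rif1 (-1.29), the retroelement corepressor Trim28 (-1.18), Sall4 (-0.97), Dppa4 (-0.78) and Dppa2 (-0.71) also fell. Those that rose were Dppa5a (9.28, 9.33 and 8.74 in serum and 10.28, 10.95 and 9.85 at 72 h, change 1.24), the ERK-activating ligand Fgf4 (0.92) and the Nodal coreceptor Tdgf1 (0.62), which was not called with quantile normalisation (0.30). Dppa5a was not called without serum replicate 3 or 72 h replicate 2 (0.95 to 1.05).

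Formative and primed genes were the list with the lowest median change, -2.48. Of 18 listed, 17 were tested, 15 fell and none rose, and without the filter 16 of 18 fell, with a median of -2.50. In 8 of the 17 no 72 h library reached the filter's minimum. Pou3f1 (Oct6) read 4.13, 4.02 and 4.29 in serum and -1.72, -1.34 and -1.21 at 72 h (log2 change -5.57, SE 0.20, limma adjusted p 3.57e-09). Otx2, which redirects Oct4 to formative enhancers, read 2.64, 2.74 and 2.54 in serum and 0.05, 0.48 and -0.05 at 72 h (log2 change -2.48, SE 0.26, limma adjusted p 1.45e-05). For both, the 72 h libraries lay more than 2 log2 units below serum. The Wnt ligand Wnt8a (-5.19), the neural factor Sox11 (-3.99), Fgf15 (-3.40), Lef1 (-3.40), Tcf15 (-2.91), Foxp1 (-2.74) and the kinase Pim2 (-2.52) fell by the widest margins after Pou3f1. Sox3 (-2.08), Cdh2 (-1.98), Sall2 (-1.93), Sox4 (-1.25), Zic5 (-1.11) and Nes (-0.87) fell too. Krt18 (-0.40) and Zic2 (-0.29) did not pass, and Fgf5 was too low to be tested. Krt18 was called without 72 h replicate 2 (-0.61).

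**Figure D2:**
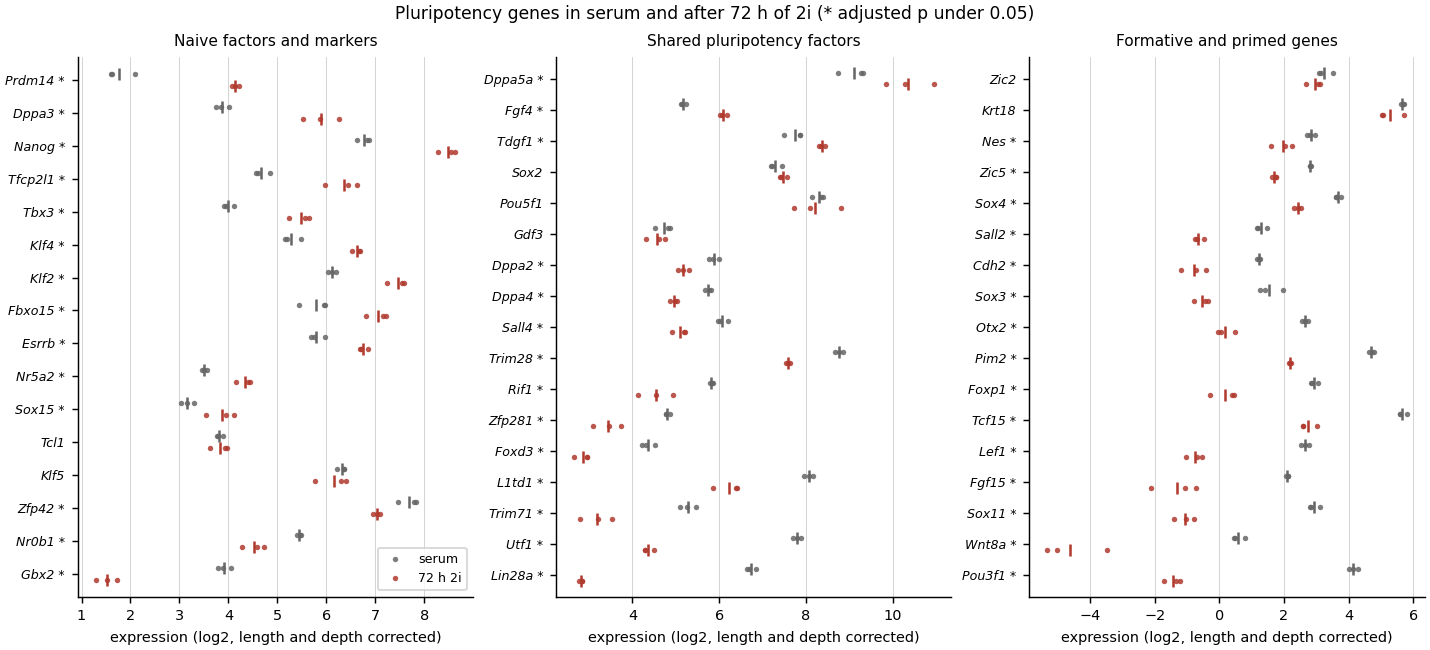
Expression (log2, length and depth corrected, horizontal axis) of naive, shared and formative genes in the 3 serum (grey) and 3 72 h 2i (red) libraries, with ticks at the means and asterisks at genes with an adjusted p under 0.05. Prdm14, Dppa3 and Nanog lie to the right of serum, Pou5f1 and Sox2 overlap it, and Lin28a, Utf1 and 15 formative genes lie to its left.

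ERK target genes are known targets of the kinase cascade that PD0325901 blocks. The media also differ in serum, base medium and the GSK3 inhibitor, so which of these changed a gene cannot be told apart. This holds for every list. Of 23 listed, 22 were tested, 19 fell and none rose, and without the filter the counts were 19 and 0 of 23. The median change was -2.31, and -1.95 without the filter. In 10 of the 22 no 72 h library reached the filter's minimum, so they were tested only through other libraries. Spry4, a feedback inhibitor of receptor kinase signalling, gave the largest change of any gene tested. It read 4.77, 4.74 and 5.00 in serum and -6.87, -6.56 and -4.88 at 72 h. The table enters a gene without reads at a fixed floor per library, and by that floor the 72 h values stand for 0, 0 and 3 reads and those of serum for 2346, 1917 and 3361. The ratio of serum to 72 h was 2700, with a 95% interval of 922 to 13100 that covers counting error only. The ERK phosphatases Dusp4 (log2 change -5.91, SE 0.26, limma adjusted p 1.63e-08) and Dusp6 fell as well. Dusp6 read 4.81, 4.80 and 4.64 in serum and -0.72, -0.37 and -0.89 at 72 h (log2 change -5.41, SE 0.18, limma adjusted p 2.49e-09).

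Transcription factors of the same list fell with the phosphatases. The ETS factor Etv4 read 4.79, 4.85 and 5.09 in serum and -0.80, -0.64 and -0.90 at 72 h (log2 change -5.69, SE 0.12, limma adjusted p 2.02e-10), and the immediate early gene Egr1 read 2.50, 2.55 and 2.74 in serum and -1.74, -2.05 and -1.67 at 72 h (log2 change -4.42, SE 0.38, limma adjusted p 2.61e-06). Myc, the growth regulator, read 5.22, 5.05 and 5.23 in serum and -0.72, -0.65 and -0.50 at 72 h (log2 change -5.79, SE 0.11, limma adjusted p 1.26e-10). In each the groups were separated by more than 3 log2 units. Etv1 (-3.92), Phlda1 (-3.11), Fosl1 (-3.09), Spred1 (-2.92), Ccnd1 (-2.67), Spry1 (-1.95) and Spry2 (-1.81) followed. Etv5 fell by 1.00 only, and kept a level of 5.72, 5.52 and 5.58 at 72 h. Spred2 fell by 0.98. Fos (0.03, -0.39 and 0.56 in serum and 0.00, -0.16 and 0.03 at 72 h), Ier2 (0.08) and Ier3 (-0.32) did not pass. Ier3 was called without serum replicate 1 (-0.42).

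Receptors and kinases of the pathway were listed apart. Of 30 receptor kinase, insulin and FGF genes 26 were tested, 4 rose and 9 fell, and without the filter the same numbers of 30. Kit, the receptor of stem cell factor, read 2.91, 2.87 and 3.03 in serum and 5.61, 5.13 and 5.69 at 72 h (log2 change 2.54, SE 0.20, limma adjusted p 1.35e-06). The insulin receptor substrate Irs2 (-2.71), the ephrin receptor Epha2 (-2.10) and Igf1r (-1.52) fell. Mapk3 (ERK1) rose by 0.47. Gsk3a changed by 0.02 and Ctnnb1 (beta-catenin) by -0.07, and neither passed.

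Targets of beta-catenin and the TCF factors are the output of Wnt signalling. Of 21 listed 16 were tested, 6 rose and 4 fell, against 25.7% and 26.5% of all genes. Without the filter 9 rose and 4 fell of 21, against 20.4% and 20.7%. The homeobox gene Cdx1 read 0.09, -0.45 and 0.23 in serum and 4.75, 5.45 and 4.33 at 72 h (log2 change 4.89, SE 0.34, limma adjusted p 4.95e-07). Axin2, a negative feedback gene that is widely used as a readout, read 2.07, 2.01 and 2.32 in serum and 2.90, 2.41 and 2.82 at 72 h (log2 change 0.58, SE 0.19, limma adjusted p 0.0228). The feedback and receptor genes Apcdd1 (1.67), Tnfrsf19 (1.63), Fzd10 (1.41) and Nkd1 (0.81) rose. Lef1, itself a TCF family factor, read 2.64, 2.51 and 2.77 in serum and -0.71, -1.04 and -0.53 at 72 h (log2 change -3.40, SE 0.19, limma adjusted p 1.16e-07), against the direction of Axin2. The mesoderm factor T (Brachyury) fell by 0.79, and Ascl2 by 2.05. Notum, a secreted Wnt inhibitor, fell by 0.45, and Tcf7 (0.13) did not pass. Myc and Ccnd1, which fell, were counted with the ERK targets and not in this list. Axin2 was not called without serum replicate 1, serum replicate 2, 72 h replicate 1 or 72 h replicate 3 (0.48 to 0.54).

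BMP pathway genes came next. Of 17 listed 14 were tested, 5 rose and 6 fell, against 25.7% and 26.5% of all genes. Without the filter 6 rose and 6 fell of 17, against 20.4% and 20.7%. Id proteins are inhibitors of basic helix-loop-helix factors and the classical targets of BMP and SMAD1/5. Id1 read 4.79, 4.89 and 4.98 in serum and -0.49, -0.62 and -0.31 at 72 h (log2 change -5.36, SE 0.22, limma adjusted p 1.16e-08), and Id3 read 3.37, 3.53 and 3.47 in serum and -0.51, 0.38 and -0.65 at 72 h (log2 change -3.71, SE 0.30, limma adjusted p 1.73e-06). Id2 (-1.68) and the ligand Bmp4 (3.18, 3.39 and 3.52 in serum and 0.23, 0.31 and 0.14 at 72 h, change -3.14) fell with them, as did the receptor Bmpr2 (-1.62). The fourth family member, Id4, went the other way and read 0.25, 0.73 and 0.48 in serum and 2.51, 2.16 and 2.24 at 72 h (log2 change 1.82, SE 0.14, limma adjusted p 1.07e-06). Msx2 (1.39), Dlx3 (0.91), Smad1 (0.71) and the inhibitory Smad7 (0.63) rose. The receptor Bmpr1a changed by -0.08 without passing.

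In the Nodal pathway 16 of 18 genes were tested, 6 rose and 6 fell. Nodal itself read 4.48, 4.39 and 4.30 in serum and 4.29, 4.32 and 4.11 at 72 h, not called. Lefty1, a secreted inhibitor and target of the pathway, read 4.11, 4.07 and 4.30 in serum and 2.63, 3.05 and 2.57 at 72 h (log2 change -1.41, SE 0.23, limma adjusted p 3.43e-04). Lefty2 read 3.65, 3.55 and 3.64 in serum and 3.42, 3.45 and 3.12 at 72 h and did not pass. The proprotein convertase Pcsk6 (1.54), the type I receptor Acvr1b (1.14) and Smad3 (0.99) rose, while Skil (-1.31), Acvr2b (-0.90) and Foxh1 (-0.83) fell.

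LIF was present in both media. Of 17 genes of its receptor chain, Stat3 and their targets 15 were tested, 4 rose, 5 fell and 6 did not pass. Socs3, the feedback inhibitor of the pathway, read 4.68, 4.72 and 4.80 in serum and 4.84, 4.84 and 4.74 at 72 h, a change of 0.07 (SE 0.10, limma adjusted p 0.562). Stat3 changed by 0.04 without passing. Bcl3 (1.04), Pim1 (0.65), Klf4 and Tfcp2l1 rose, and the receptor Lifr (-1.09), Junb (-1.24) and Gbx2 fell.

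**Figure D3:**
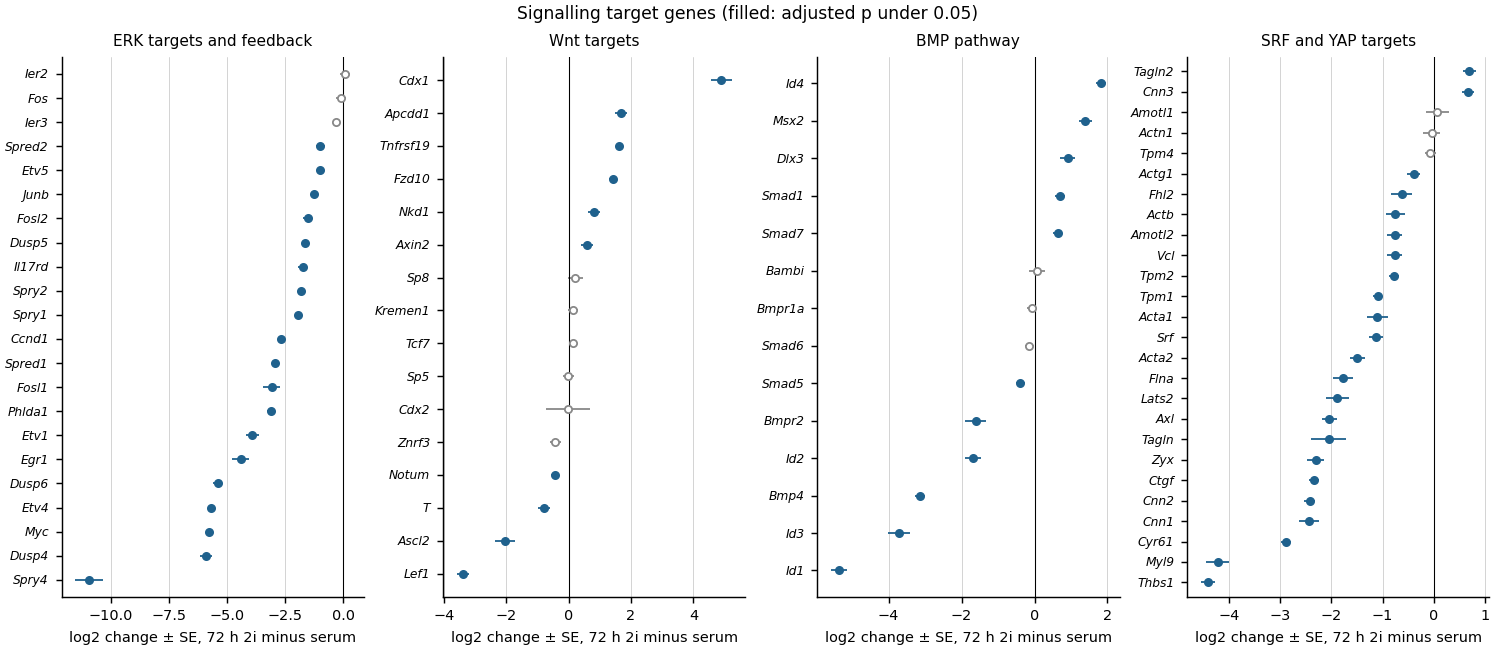
Log2 change with its standard error (72 h 2i minus serum, horizontal axis) of ERK, Wnt, BMP and SRF or YAP genes. Filled points passed an adjusted p of 0.05. The 19 ERK targets that passed lie left of 0, reaching -10.94 for Spry4, whereas Wnt and BMP genes lie on both sides, with Cdx1 at 4.89 and Id1 at -5.36.

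Serum activates the factor SRF and the coactivators YAP and TAZ, which drive cytoskeletal and matricellular genes. Of 28 such targets 26 were tested, 21 fell and 2 rose, with a median change of -1.11. Without the filter 22 of 28 fell. The matrix protein Thbs1 read 4.15, 4.06 and 4.38 in serum and 0.02, -0.37 and -0.31 at 72 h (log2 change -4.42, SE 0.14, limma adjusted p 1.50e-09). Myosin light chain Myl9 read 3.84, 3.81 and 3.78 in serum and -0.83, -0.26 and -0.16 at 72 h (log2 change -4.23, SE 0.22, limma adjusted p 5.14e-08). The YAP targets Cyr61 (4.85, 4.83 and 4.79 in serum and 2.02, 1.86 and 1.95 at 72 h, change -2.88) and Ctgf (-2.35) fell with the calponins Cnn1 (-2.43) and Cnn2 (-2.43), the focal adhesion protein Zyx (-2.31) and Srf itself (-1.13). Actb fell by 0.75. Actn1 (-0.04) and Tpm4 (-0.07) did not pass. The exceptions were Tagln2 (0.70) and Cnn3 (0.67), which rose. Cnn3 was not called with quantile normalisation (0.46).

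Of 28 adhesion and matrix genes 6 were higher and 11 lower, against 25.7% and 26.5% of all genes. The gap junction gene Gja1 (connexin 43) read 6.04, 5.99 and 5.85 in serum and 1.71, 1.49 and 1.18 at 72 h (log2 change -4.50, SE 0.13, limma adjusted p 1.28e-09). Gjb5, of the same family, rose by 1.05. Basement membrane genes Hspg2 (-2.18), Col18a1 (-2.04) and Lama5 (-1.80) fell with the integrin Itga3 (-2.11), while Sparc (0.08) did not pass. E-cadherin (Cdh1) read 6.66, 6.62 and 6.71 in serum and 7.01, 6.54 and 6.94 at 72 h and was not called, and Epcam fell by 1.13.

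Genes of other lineages came next. Of 21 neural genes 12 were tested, 9 fell and 1 rose, and without the filter 11 of 19 fell and none rose. The axon guidance mediator Crmp1 read 4.12, 3.98 and 4.14 in serum and -0.10, -0.26 and -0.46 at 72 h (log2 change -4.35, SE 0.14, limma adjusted p 1.50e-09), and the neurofilament Nefm fell by 2.41. Stmn2 fell by 1.48, from 6.91, 6.88 and 6.56 in serum, the RNA-binding protein Elavl3 by 2.00 and the tubulin Tubb3 by 0.51. Of 15 mesoderm and streak genes 6 were tested, 1 rose and 3 fell, and without the filter 1 rose and 5 fell. Gsc, an organiser homeobox gene, read -2.99, -4.30 and -2.85 in serum and 1.86, 2.51 and 1.33 at 72 h (log2 change 5.28, SE 0.55, limma adjusted p 1.20e-05). It passed the filter only through libraries in 2i. Hand1 (-1.65), Fgf8 (-1.14) and T fell.

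Trophoblast genes gave 3 higher and 5 lower of 12 tested, and the same numbers of 13 without the filter. Tfap2c, a factor shared by trophoblast, germ cells and naive cells, read 2.88, 2.78 and 3.05 in serum and 5.39, 5.24 and 5.25 at 72 h (log2 change 2.39, SE 0.11, limma adjusted p 2.73e-08). The summed trophoblast markers (Cdx2, Elf5, Gata3 and Tfap2c) stood at 8.60 to 10.2 in serum and 39.2 to 43.4 at 72 h, nearly all of it Tfap2c, without which they stood at 1.73 to 1.94 and 1.07 to 1.52. Gata2 (2.32) and the placental homeobox gene Esx1 (0.27, -0.09 and 0.05 in serum and 3.36, 3.20 and 3.24 at 72 h, change 3.19) rose. The defining markers did not follow: Cdx2 read -0.55, -0.50 and -0.11 in serum and -0.38, 0.14 and -0.98 at 72 h, the keratin Krt8 fell by 0.87 and Gata3 by 1.12, and Elf5 was too low to be tested. Of 10 tested primitive endoderm genes 2 rose (Srgn 1.36 and Gata4 0.92) and 2 fell (Cubn -3.75 and Dab2 -1.08), with Col4a1 (-0.34) not passing. Without the filter 3 rose and 2 fell of 17, and with the gene span trend removed 3 rose and 4 fell of 10. Members of the Zscan4 cluster, which marks cells resembling the embryo after its first cleavage, are near-identical copies whose reads may be divided. Zscan4d read 3.68, 3.79 and 3.04 in serum and 3.45, 3.85 and 3.30 at 72 h and was not called. Of 9 tested genes of this state Tcstv1 (0.96) and Gm4340 (0.52) rose and Zscan4e (-0.38) fell, while Zscan4f (-0.14) did not pass. All 9 read highest at 72 h in replicate 2, and without it 1 rose, 1 fell and the median change was -0.25, against -0.10 with it. Gm4340 was not called without serum replicate 1, serum replicate 3, 72 h replicate 1 or 72 h replicate 2 (0.41 to 0.52). Zscan4e was not called without serum replicate 1, serum replicate 2, 72 h replicate 1 or 72 h replicate 3 (-0.34 to -0.32). Of 6 tested fibroblast genes 2 rose (Pdgfrb 2.18 and Loxl1 0.85) and 4 fell, among them Twist1 (-1.27) and Col1a1 (-0.96), and without the filter 3 rose and 6 fell of 14. Krt8 was not called without 72 h replicate 3 (-0.67). Col4a1 was called without serum replicate 2 (-0.42).

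Germ line genes whose promoters are methylated in somatic cells formed the next group. Of 36 listed 30 were tested, 17 rose and 4 fell, with a median change of 0.63, and without the filter 18 of 35 rose. Stra8, the gatekeeper of meiosis that answers to retinoic acid, read 1.58, 1.32 and 1.47 in serum and 6.16, 6.24 and 6.10 at 72 h (log2 change 4.71, SE 0.14, limma adjusted p 1.15e-09). Dazl, an RNA-binding protein of germ cells, read 1.15, 1.14 and 0.81 in serum and 3.33, 3.72 and 3.28 at 72 h (log2 change 2.41, SE 0.25, limma adjusted p 1.30e-05). Brdt, a testis bromodomain protein, read -1.54, -1.11 and -0.89 in serum and 1.76, 1.61 and 1.76 at 72 h (log2 change 2.89, SE 0.17, limma adjusted p 1.26e-07). In these 3 genes the groups did not overlap. Brdt passed the filter only through libraries in 2i. The X-linked homeobox genes Rhox9 (2.79) and Rhox6 (2.52) and the piRNA cofactor Fkbp6 (2.24) rose by more than 2. The meiotic axis genes Sycp3 (3.39, 3.22 and 2.88 in serum and 4.67, 5.23 and 4.49 at 72 h, change 1.63), Hormad2 (1.24) and Hormad1 (1.02) rose less. The list did not rise as a whole. Ddx4 (Vasa) read 2.85, 2.99 and 2.72 in serum and 2.46, 2.50 and 2.39 at 72 h and fell by 0.41, with Zcwpw1 (-0.85), Tdrkh (-0.72) and Piwil2 (-0.69) lower too. Stag3 (0.21) and Rhox5 (0.19) did not pass.

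The E-box CACGTG is bound by factors of the Myc, Max and Mga family, and such sites are known at promoters of germ line genes. It was searched on both strands, where it reads the same, in RefSeq windows from 250 bases before to 50 after each start. Of 30 windows of 25 germ line genes 15 held it (50.0%), against 10.5% of the 11782 windows of genes tested, though windows of a gene can overlap. Of the 12 genes with the motif 6 rose, 1 fell and 5 were not called, and of the 13 without it 8 rose, 2 fell and 3 were not called. The 6 that rose are shown, with Taf7l at 1.02 and Stk31 at 0.66. Stk31 was not called without serum replicate 2, serum replicate 3, 72 h replicate 1 or 72 h replicate 2 (0.58 to 0.66). Each stretch is from RefSeq (GRCm38.p6), in the direction of transcription, with the E-box in capitals.
Brdt (chr5:107331104-107331133, plus strand): cgcaggcacagtCACGTGgcagaccctggc
Fkbp6 (chr5:135350064-135350157, minus strand): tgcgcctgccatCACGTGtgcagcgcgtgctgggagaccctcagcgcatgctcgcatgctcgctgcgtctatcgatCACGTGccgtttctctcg
Hormad1 (chr3:95559608-95559674, plus strand): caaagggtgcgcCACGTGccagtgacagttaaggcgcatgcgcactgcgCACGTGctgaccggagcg
Stk31 (chr6:49395472-49395501, plus strand): aggccggccaccCACGTGaccagggctgcg
Sycp3 (chr10:88459511-88459561, plus strand): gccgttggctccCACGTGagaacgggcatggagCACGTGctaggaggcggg
Taf7l (chrX:134476522-134476551, minus strand): accctcttatacCACGTGacagaactcgcc
The E-box began between 49 and 78 bases before the start in Taf7l, Stk31 and Brdt, and Sycp3, Hormad1 and Fkbp6 held a pair of them. In Ddx4, the member with the motif that fell, it began 29 bases before the start. Of the factors, Myc fell by 5.79, Mga fell by 0.99 and Max changed by -0.13 without passing. Mga was not called without 72 h replicate 2 (-0.71).

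Imprinted genes are expressed from the allele of 1 parent. Of 34 listed 25 were tested, 7 rose and 10 fell, against 25.7% and 26.5% of all genes. Without the filter 7 rose and 13 fell of 31, against 20.4% and 20.7%. The paternally expressed Mest read 5.15, 5.08 and 5.12 in serum and 1.83, 1.78 and 1.86 at 72 h (log2 change -3.29, SE 0.09, limma adjusted p 6.20e-10), and Peg10, a domesticated retrotransposon, read 6.98, 6.94 and 7.09 in serum and 4.66, 4.29 and 4.73 at 72 h (log2 change -2.44, SE 0.18, limma adjusted p 9.93e-07). Nnat (-2.73), the noncoding Meg3 (-2.55), the maternally expressed cell cycle inhibitor Cdkn1c (-1.91) and Peg3 (-1.67) fell. Snurf (-1.62) and Snrpn (-1.31) overlap on the same strand, so their values are not independent. Plagl1, a zinc finger regulator of other imprinted genes, read -0.54, -0.90 and -0.34 in serum and 1.84, 1.13 and 2.17 at 72 h (log2 change 2.31, SE 0.29, limma adjusted p 4.67e-05). It passed the filter only through libraries in 2i. Slc22a18 (2.15), Igf2 (0.70) and H19 (0.55) rose, the last pair from neighbouring genes that opposite alleles express. H19 was not called with the gene span trend removed (0.46). Impact (-0.10) and Gnas (-0.13) did not pass.

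**Figure D4:**
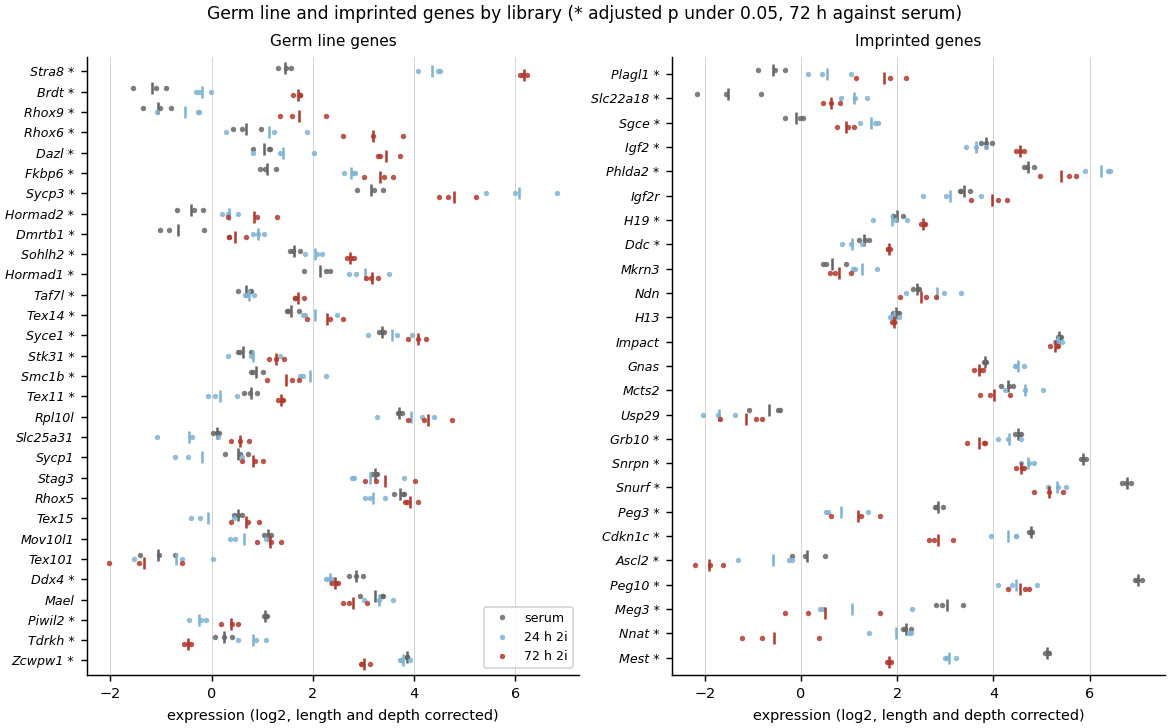
Expression (log2, horizontal axis) of germ line and imprinted genes in the 3 libraries each of serum (grey), 24 h 2i (blue) and 72 h 2i (red), with ticks at the means and asterisks at genes called at 72 h against serum. Stra8, Brdt and Dazl lie right of serum, most of the shift from 24 h in Dazl (2.04 of 2.41), while Mest and Peg10 lie left of it.

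Polycomb genes, the writers and readers of repressive histone marks, gave 8 higher and 10 lower of 30 tested, and 9 and 10 of 31 without the filter. The catalytic subunit Ezh2 rose by 0.32, and Eed fell by 0.78. Changes were larger among accessory and PRC1 subunits. Bmi1 read 0.80, 0.70 and 0.63 in serum and 2.11, 2.42 and 2.13 at 72 h (log2 change 1.51, SE 0.19, limma adjusted p 5.15e-05), whereas Phc1 (-1.81), Jarid2 (-1.38) and Phf19 (-2.10) fell. Rybp (-0.06) and Pcgf6 (-0.02) were not called.

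Hox genes are classical Polycomb targets and stood near the detection limit in serum. Only 7 of 33 passed the filter, and in 6 of these no serum library reached its minimum, so they had to be higher in 2i to be tested. Without the filter 19 of the 33 rose and 1 fell, against 20.4% and 20.7% of all genes. Hoxa10 read -3.00, -3.32 and -2.75 in serum and 1.03, 1.23 and 0.88 at 72 h, and Hoxb13 read -3.05, -2.78 and -2.66 in serum and 0.73, 1.33 and 0.45 at 72 h. Hoxa4 (3.45) and Hoxd8 (2.95) were of the same kind. None of the 7 reached 3 at 72 h, while naive factors such as Klf4 stood at 6 or more on the same scale.

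Cdx1 and Stra8 are also targets of retinoic acid. Of 20 genes of its metabolism, receptors and targets 13 were tested, 8 rose and 3 fell, and without the filter 10 rose and 6 fell. The binding protein Crabp1 read 3.04, 2.78 and 2.78 in serum and 4.59, 4.89 and 4.33 at 72 h (log2 change 1.73, SE 0.21, limma adjusted p 3.45e-05), and the synthesising enzyme Aldh1a2 (1.12) and the reductase Dhrs3 (1.11) rose from low levels. The receptor Rarg fell, from 5.85, 5.76 and 5.97 in serum to 3.85, 3.75 and 3.75 at 72 h (log2 change -2.08, SE 0.12, limma adjusted p 9.98e-08). Rara fell by 0.45 and Rxra rose by 0.69. Rara was not called without serum replicate 2, serum replicate 3, 72 h replicate 2 or 72 h replicate 3 (-0.47 to -0.38).

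Among the metabolic lists sterol synthesis had the highest share called (96.0%). Of 26 genes of the mevalonate and cholesterol pathway and its regulators 25 were tested, 23 rose and 1 fell, and all 25 were above the filter's minimum in every serum library. Insig1, the sterol-sensing retention protein, read 3.81, 3.88 and 3.67 in serum and 6.19, 6.42 and 6.08 at 72 h (log2 change 2.45, SE 0.16, limma adjusted p 2.84e-07). Sc4mol, a C4-demethylase (now Msmo1), read 2.48, 2.40 and 2.25 in serum and 4.36, 4.35 and 4.35 at 72 h (log2 change 1.98, SE 0.10, limma adjusted p 4.09e-08). Every 72 h library exceeded every serum library in both. The branch point enzymes Fdft1 (1.67) and Fdps (1.51), Hmgcs1 (0.96), Sqle (0.88), Tm7sf2 (1.67), Idi1 (0.44) and the regulators Srebf2 (0.60) and Srebf1 (0.70) rose. Idi1 was not called without serum replicate 3, 72 h replicate 1 or 72 h replicate 2 (0.30 to 0.46).

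Fatty acid and lipid droplet genes shared part of this pattern, with 11 of 18 tested higher and 2 lower, and 12 and 1 of 21 without the filter. The desaturase Scd1 read 3.31, 3.24 and 3.55 in serum and 6.37, 6.03 and 6.33 at 72 h (log2 change 2.88, SE 0.12, limma adjusted p 9.23e-09), and the desaturases Fads1 (2.15), Fads2 (1.81) and Scd2 (1.36) rose. Fabp3, a fatty acid binding protein, read 5.58, 5.71 and 5.50 in serum and 8.29, 8.37 and 7.93 at 72 h (log2 change 2.60, SE 0.16, limma adjusted p 1.69e-07), and Cpt1a, which admits fatty acids to mitochondria, rose by 2.35. The droplet protein Cidea, nearly silent in serum, read -2.45, -1.01 and -0.93 in serum and 4.91, 4.97 and 4.41 at 72 h (log2 change 6.23, SE 0.35, limma adjusted p 1.04e-07). It passed the filter only through libraries in 2i. The synthetic trunk did not rise: Acaca fell by 0.82, Fasn changed by -0.58 without passing and Acly read 6.24, 6.23 and 6.37 in serum and 6.35, 6.17 and 6.30 at 72 h, also not called. Fasn was called without 72 h replicate 3 (-0.73).

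The response to amino acid shortage runs through the translation factor eIF2 and the activator Atf4. Of 25 genes of this response and of serine synthesis 23 were tested, 19 rose and 1 fell, and without the filter 20 rose and 1 fell. Asns, asparagine synthetase, read 5.96, 6.03 and 5.94 in serum and 8.32, 8.28 and 8.07 at 72 h (log2 change 2.25, SE 0.11, limma adjusted p 4.94e-08). Atf4 itself read 6.68, 6.63 and 6.52 in serum and 8.05, 8.15 and 7.74 at 72 h (log2 change 1.37, SE 0.15, limma adjusted p 1.42e-05). Both stood more than 1 log2 unit above serum in every library. Vldlr read -3.32, -2.90 and -2.17 in serum and 0.39, 0.34 and 0.39 at 72 h (log2 change 3.17, SE 0.25, limma adjusted p 1.58e-06). It passed the filter only through libraries in 2i. Ddit4, an inhibitor of mTORC1, rose by 1.72, and the glutathione-degrading Chac1 and the pseudokinase Trib3 rose by 1.61 and 1.57. In serine synthesis Psph (1.42) and Psat1 (1.01) rose, and Shmt1 (-0.13) and the transsulfuration enzyme Cth (0.14) did not pass. The arginine and lysine transporter Slc7a3 fell, from 4.70, 4.82 and 4.77 in serum to 3.32, 3.21 and 3.30 at 72 h.

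Atf4 and C/EBP partners bind the amino acid response element, searched here as TGATGNAA on both strands. It was present in 4 of 24 windows of 19 of these genes (16.7%) and in 2.12% of all windows. The genes were Asns, Chac1, Trib3 and Vldlr, each called higher, as were 13 of the 15 without it. In Trib3 it lay after the start. The other 3 are shown, with the element in capitals, in the direction of transcription (RefSeq, GRCm38.p6).
Asns (chr6:7693213-7693244, minus strand): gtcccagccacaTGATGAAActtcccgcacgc
Chac1 (chr2:119351037-119351068, plus strand): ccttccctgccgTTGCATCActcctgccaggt
Vldlr (chr19:27216808-27216839, plus strand): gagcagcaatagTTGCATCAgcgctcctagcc
In Chac1 and Vldlr the element reads from the opposite strand.

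A further 7 motifs were searched on both strands in windows of the lists their factors are known for. The TEAD motif GGAATG was in 41.7% of 24 windows of SRF and YAP targets and 12.1% of all windows. The SMAD1/5 motif GGCGCC was in 50.0% of 12 BMP windows and 21.6% of all, and the antioxidant element TGACNNNGC in 28.0% of 25 and 14.4%. The ETS motif CCGGAA was in 6.67% of 15 ERK target windows and 28.1% of all. The TCF motif CTTTGAT was in 11.1% of 18 Wnt windows and 2.44% of all, the sterol element TCACNCCAC in 4.35% of 23 sterol windows and 1.18%, and the metal element TGCGCNC in 28.0% of 25 and 27.2%. The letters of CCGGAA and GGAATG can share bases. With so few windows these are descriptions.

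Of 23 antioxidant and metal response genes tested 9 rose and 5 fell, against 25.7% and 26.5% of all genes. The metallothioneins Mt1 (7.02, 6.97 and 6.95 in serum and 8.98, 9.12 and 8.55 at 72 h, change 1.90) and Mt2 (1.33) and the zinc exporter Slc30a1 (0.77) rose. The peroxidases Gpx1 (1.24) and Gpx4 (1.21) rose, whereas the glutathione-synthesis enzymes Gclc (-0.49) and Gclm (-0.53) and Txnrd1 (-0.63) fell. Prdx1 (0.14) and Prdx6 (-0.17) did not pass. Gpx4 was not called without serum replicate 1, serum replicate 3, 72 h replicate 1 or 72 h replicate 2 (0.85 to 1.30). Without 72 h replicate 2 the list's counts were 5 higher and 6 lower.

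Glycolytic genes gave 8 higher and 9 lower of 26 tested, and 7 and 8 without the filter. Pdk1, a pyruvate dehydrogenase kinase, read 4.08, 4.05 and 3.85 in serum and 1.63, 1.70 and 1.74 at 72 h (log2 change -2.30, SE 0.11, limma adjusted p 3.51e-08). The lactate exporter Slc16a3 (-1.25), Pfkl (-1.25) and Eno1 (-1.05) fell. Other isoenzymes rose: Aldoc (1.05, 1.21 and 0.80 in serum and 3.50, 3.37 and 3.41 at 72 h, change 2.41), Hk1 (2.03) and Ldhb (1.90). Pgk1 (-0.02) and Slc16a1 (-0.02) were not called.

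Of 43 nuclear subunits of the respiratory chain and ATP synthase 13 rose and none fell, with a median of 0.50. Cox7a1, a subunit of cytochrome oxidase found mainly in muscle, read 2.65, 2.25 and 2.34 in serum and 5.29, 5.90 and 5.20 at 72 h (log2 change 3.05, SE 0.29, limma adjusted p 6.41e-06). Cox5a (1.23), Cox6a1 (1.18) and Uqcrb (0.93) rose, and Atp5a1 (-0.04) and Cyc1 (0.07) did not pass. The share called higher, 30.2%, lay near that of all genes. In 41 of the 43 genes 72 h replicate 2 gave the highest 72 h value, and without it 6 rose. With the gene span trend removed 14 rose, and with quantile normalisation 24 rose and Atp5a1 fell (-0.29). Of the 13 mitochondrially encoded genes, examined after their values were seen, 5 rose and none fell, with a median of 0.66 and a range from -0.77 to 1.38.

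**Figure D5:**
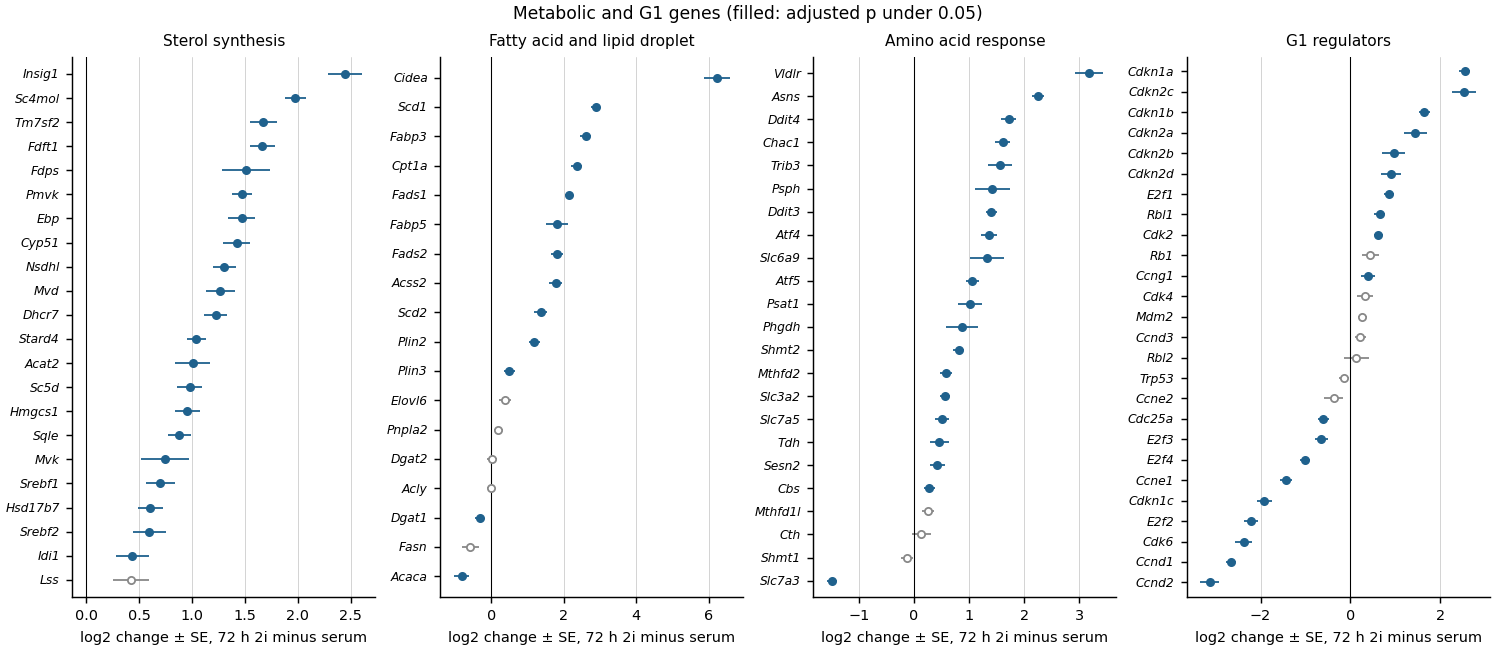
Log2 change with its standard error (72 h 2i minus serum, horizontal axis) of sterol, lipid, amino acid response and G1 genes. Filled points passed an adjusted p of 0.05. The sterol genes drawn lie right of 0, and G1 genes run from Ccnd2 at -3.13 to Cdkn1a at 2.54.

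G1 is the phase that is brief in ESCs and lengthens as they differentiate. Of 26 regulators of G1 tested 10 rose and 9 fell, against 25.7% and 26.5% of all genes. Without the filter the counts were 9 and 9, against 20.4% and 20.7%. The D cyclins Ccnd2 (2.89, 2.89 and 2.99 in serum and -0.14, -0.51 and 0.02 at 72 h, change -3.13) and Ccnd1 (4.75, 4.80 and 5.00 in serum and 2.23, 2.12 and 2.19 at 72 h, change -2.67) fell, with their partner Cdk6 (-2.37) and cyclin E1 (Ccne1 -1.43). Ccnd3 read 6.18, 6.14 and 6.36 in serum and 6.49, 6.56 and 6.29 at 72 h and was not called. The inhibitor Cdkn1a (p21) read 3.83, 3.87 and 3.85 in serum and 6.43, 6.55 and 6.18 at 72 h (log2 change 2.54, SE 0.13, limma adjusted p 5.18e-08). Its relative Cdkn1b (p27) read 2.44, 2.44 and 2.08 in serum and 3.98, 3.98 and 3.92 at 72 h (log2 change 1.64, SE 0.12, limma adjusted p 9.49e-07). Cdkn2c (2.52), Cdkn2a (1.44), Cdkn2b (0.96) and Cdkn2d (0.91) rose with them. The imprinted inhibitor Cdkn1c fell, as given above. Among E2F factors E2f1 rose (0.86) and E2f2 (-2.21), E2f4 (-1.01) and E2f3 (-0.65) fell. Trp53 read 6.09, 6.09 and 6.23 in serum and 6.06, 6.01 and 5.92 at 72 h and was not called.

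Myc and its partners drive growth and ribosome production. Of 24 genes of the Myc network and its nucleolar targets 16 fell and 2 rose. Mycn read 5.90, 5.85 and 6.09 in serum and 4.61, 4.66 and 4.44 at 72 h (log2 change -1.38, SE 0.11, limma adjusted p 1.45e-06), and remained well above Myc at 72 h. Polr1b, of RNA polymerase I, fell by 1.63, Nolc1 by 1.32 and Odc1, of polyamine synthesis, by 1.34. Mlx (0.01) and the nucleolar Fbl (-0.08) did not pass. Of 34 replication genes 13 fell and none rose, none by as much as 1. Mcm10 (-0.85), Cdc6 (-0.73), Rfc1 (-0.71) and Pold1 (-0.69) fell most, and Pcna (-0.03) and Mcm6 (-0.02) were not called. With the gene span trend removed 18 fell, and with quantile normalisation 15 fell and 2 rose.

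The 44 ribosomal protein genes, which share reads with many pseudogene copies, all had positive changes (median 0.52), Rpl11 turning to -0.029 with quantile normalisation, but 6 were called (13.6%). Rpl3 (8.85, 8.87 and 8.48 in serum and 9.48, 9.77 and 9.16 at 72 h, change 0.74), Rpl12 (0.70), Rpl28 (0.55) and Rps6 (0.52) were among these, and Rpl11 (0.07) and Rpl24 (0.18) were not called. All 44 read highest at 72 h in replicate 2, and without it 1 rose and the median was 0.28. With the gene span trend removed 14 rose, and with quantile normalisation 14, with a median of 0.26, but Rpl28 (0.25) and Rps6 (0.19) then lost their calls. Rpl3 was not called without serum replicate 3, 72 h replicate 1 or 72 h replicate 2 (0.59 to 0.73). Rpl12 was not called without serum replicate 3, 72 h replicate 1 or 72 h replicate 2 (0.52 to 0.74). Rps6 was not called without serum replicate 3, 72 h replicate 1 or 72 h replicate 2 (0.40 to 0.47). Of 32 proteasome genes 4 fell and none rose, and with quantile normalisation 7 fell and 2 rose. In 27 of the 32 the highest 72 h value was that of replicate 2, without which 3 fell. Psmb10, an immunoproteasome subunit, fell by 2.01, and the regulatory subunits Psmd11 (-0.56), Psmd1 (-0.49) and Psmd2 (-0.28) fell, while Psma2 (-0.02) and Psmc1 (-0.01) were not called. Psmd2 was not called without serum replicate 1, serum replicate 2, serum replicate 3, 72 h replicate 2 or 72 h replicate 3 (-0.29 to -0.25).

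The genes with the widest changes and no overlap were mostly close to silent on one side, and their fold changes rest on few reads there. No serum library of the rises in this paragraph reached the filter's minimum, so they were tested only through libraries in 2i. The largest rises were Calr4, a calreticulin-like gene (-4.57, -5.30 and -4.26 in serum and 1.78, 1.56 and 1.48 at 72 h), and then Cidea and Fbln5, an elastic fibre protein (-6.78, -4.92 and -4.74 in serum and 0.88, 0.53 and 0.48 at 72 h). Gm9376 had no reads in serum and 63, 67 and 55 at 72 h, which is at least 19.2-fold higher against a floor of 3 reads per library. The channel gene Pkd2l1 (5.87), Gm5096 (5.72), the ion exchanger Slc24a5 (5.70), Tmem117 (5.69) and Gm4222 (5.61) also rose by over 5. The peptidase Cpvl rose from 2 reads in all to 150, a ratio of 70.7 (95% interval 19.2 to 589). AL805949.1 and Bhmt-ps1 had the same change (5.90), are overlapping entries of a copy of Bhmt, and may hold reads of Bhmt.

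The largest falls after Spry4 were E030010N08Rik, from 445 reads over the serum libraries to 1, a ratio of 472 (95% interval 84.3 to 18700), and Spink3, a protease inhibitor. Spink3 had 128, 131 and 125 reads in serum and none at 72 h, at least 45.6-fold lower. Cend1, a neuronal cell cycle exit gene, and Tnfsf11, the cytokine RANKL, had none at 72 h either, at least 27.9-fold and 20.1-fold lower. Enpp2, the secreted enzyme autotaxin, read 1.77, 1.49 and 1.49 in serum and -4.74, -5.01 and -4.48 at 72 h (log2 change -6.32, SE 0.37, limma adjusted p 1.24e-07). Enox1 read 3.79, 3.75 and 3.54 in serum and -2.16, -2.43 and -1.82 at 72 h (log2 change -5.83, SE 0.18, limma adjusted p 1.41e-09), the neuropeptide precursor Vgf (-5.85), carbonic anhydrase Car3 (-5.91) and 6330407J23Rik (-6.75) followed. Ankrd34a fell from 255 reads to 3, a ratio of 90.2 (95% interval 30.5 to 440).

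The 72 h libraries were also tested against 3 libraries of 24 h in 2i, to ask what was still moving late. In the 24 h libraries short genes stood above long genes by 1.84, 1.66 and 0.95 on the measure of gene span given above, against 0.53 to 1.32 at 72 h. Of 12306 genes 3886 passed (31.6%), 1949 higher (15.8%) and 1937 lower (15.7%). This count ran from 2427 to 6692 when single libraries were left out, the lowest without 72 h replicate 1 and the highest without 24 h replicate 3, and was 1587 in a fit of these 6 libraries alone. With the gene span trend removed it was 3864, and 3138 of these were among the 3886. Both comparisons share the 72 h libraries, so values are given side by side. Counts of lists against 24 h were made with the filter only. The genes named here kept their calls without any single library, except where given. Of the 16 naive genes 7 were higher at 72 h than at 24 h and 1 was lower. Prdm14 rose by 1.10 between the times, Tfcp2l1 by 1.26 and Klf5 by 1.57, while Nanog (0.17, or -0.01 without 24 h replicate 3) and Klf2 (0.17) did not pass. In the germ line list 14 of 30 were higher than at 24 h and 3 lower. Without single libraries 12 to 16 were higher and 3 to 5 lower. Rhox9 (2.26), Rhox6 (2.06), Dazl (2.04), Brdt (1.90) and Stra8 (1.81) rose further, and Sycp3 fell by 1.29.

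Of the 17 formative genes 9 were lower at 72 h than at 24 h and 2 higher, or 7 to 9 lower and 1 higher without 24 h replicate 1 or 2 or 72 h replicate 1 or 3. Of the 12 trophoblast genes 6 were higher and 3 lower. Of 25 sterol genes 3 were higher and 2 lower at 72 h than at 24 h, and Insig1 changed by -0.12 without passing, or by 0.03 without 24 h replicate 1. Without 24 h replicate 3 the sterol counts were 3 and 8, without 24 h replicate 1 they were 2 and 1, and without 24 h replicate 2, 72 h replicate 1 or 72 h replicate 3 they were 1 and 1. Of 22 ERK targets 2 were higher and 5 lower, or 5 and 9 without 24 h replicate 3, 1 and 3 without 72 h replicate 1 and 3 and 3 without 72 h replicate 3. Egr1 changed by 0.83 without passing, and passed at 1.21 without 24 h replicate 3. In the amino acid response 3 were higher and 7 lower, or 3 higher and 3 to 10 lower without single libraries. Ddit3 (-1.41), Ddit4 (-1.08) and Chac1 (-0.74) fell between the times although they stayed above serum. Foxd3 and Jarid2, both below serum at 72 h, rose from 24 h by 2.34 and 1.63. The largest late rises were Ly6a (Sca-1, 5.06), Slc24a5 (4.09) and Bhmt, a homocysteine methyltransferase (3.97), with its copy. No serum or 24 h library of Slc24a5, Bhmt or its copy reached the filter's minimum. They had to be higher at another time in 2i to be tested, so their rank depends on the filter. The largest late falls included Wnt8a (-4.62), the chemokine Cxcl10 (-4.13) and the Wnt agonist Rspo1 (-4.10), and Cend1 and Spink3, which had no reads at 72 h and so no measured size of change. Cxcl10 passed the filter only through earlier libraries in 2i.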

How the data were processed

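Expression was measured by RNA-seq of 12 libraries, 3 each of serum and of 6, 24 and 72 h in 2i, made with a kit that does not mark strand and sequenced as 50 bp single-end reads. As deposited by the authors, the expression table holds log2 values per gene, corrected for length and depth and scaled so that the 75th percentile is 2.51 throughout, with 0.9 reads entered for a gene without reads. Read counts given for some genes were recovered from that floor, with whole numbers taken within 1%. The submitters' processing notes name Trim Galore 0.3.5, TopHat2 2.0.11 and the builds GRCm38 and NCBIM37, with no role stated there, and the study ties NCBIM37 to the mapping of bisulfite reads. Gene intervals overlapped those of RefSeq GRCm38.p6 for 99.7% of 10673 shared symbols. The sources used here name no gene counter, and its treatment of overlapping genes, antisense genes and copies could change their values. The bisulfite and H3K9me2 files were not used. Depth is unknown, so no counting interval was set on most values, and intervals given cover counting error only.

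Genes with a log2 value of 0 or more in at least 3 of the 12 libraries were tested. A linear model with 1 mean per group was fitted to all 12 libraries, which share an estimate of the spread, with limma 3.58.1 in R 4.3.3 (moderated by an intensity trend). Benjamini-Hochberg adjustment ran over all 12306 genes, and a gene was called, or said to have risen or fallen, at an adjusted p under 0.05. Tests are two-sided. On data simulated for 72 h against serum over 12306 genes, 46 of 50 genes changed by 2 on the log2 scale were recovered. Of those changed by 1, 32 of 50 were recovered, and of those changed by 0.5, 11 of 50, with 6 false calls. The simulated noise was independent between genes and libraries. The real libraries share deviations across genes, so the 6 false calls do not measure false calls in the data.

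The 33 gene lists were chosen with earlier results of these data known, as were the members described. Genes named by rule were the 12 largest rises and falls without overlap of libraries, up to 4 called members with the largest changes per list and up to 2 with the smallest among those with a serum mean of 3 or more, all naive, shared and formative genes, a few leading signalling genes and the 5 largest late changes in each direction. Other members were named for their role after their values were seen. A few genes that these rules would name are not reported here, in the text or in the plots with gene names, but they stay in the counts. Promoter windows came from RefSeq and matched 9236 of 12295 tested symbols. Alternatives covered the libraries in the fit, variance trend, normalisation, filter, pseudocount, a replicate block, a fold minimum, the gene span trend and single libraries left out. The counts of lists without 72 h replicate 2, with the gene span trend removed and with quantile normalisation were added after the data were seen.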

Additional observations from a re-analysis of the deposited data

Results flagged for a closer look

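Genes were looked for among those named whose change from serum was called in opposite directions at 24 h and at 72 h of 2i. The 8 genes found were chosen by those calls, so the differences between the times are a description and were not tested apart from them. Both times are compared with the same serum libraries. The 24 h replicates 1 and 2 stood furthest apart by gene span, and with the gene span trend removed all 8 genes kept both calls and directions.

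Ly6a (Sca-1), a surface protein, read 1.06, 0.97 and 0.63 in serum, 0.37, -0.16 and -1.18 at 24 h and 4.71, 5.16 and 4.36 at 72 h. It fell by 1.20 at 24 h and rose by 3.86 at 72 h, and the times differed by 5.06. The 24 h change ran from -1.55 to -0.78 when single libraries were left out. Every 72 h library lay above every other library.

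The other direction was led by 3 secreted factors. The chemokine Cxcl10 rose by 1.75 at 24 h and fell by 2.38 at 72 h, and the difference between the times was -4.13. Fgf8 rose by 2.33 at 24 h and fell by 1.14 at 72 h (difference -3.48). No serum or 72 h library of Cxcl10 or Fgf8 reached the filter's minimum. Both genes could be tested only through earlier libraries in 2i, so higher values there were a condition of being tested. Lefty1, the Nodal inhibitor, read 4.11, 4.07 and 4.30 in serum, 6.57, 6.36 and 5.53 at 24 h and 2.63, 3.05 and 2.57 at 72 h (difference -3.40). The piRNA gene Tdrkh (difference -1.30) and the neuronal tubulin Tubb3 (difference -1.10) were also higher than serum at 24 h and lower at 72 h.

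The inhibitory Smad7 (difference 1.48) and the zinc exporter Slc30a1 (difference 1.08) were below serum at 24 h and above it at 72 h. In Smad7 the values were 3.86, 3.81 and 4.05 in serum, 2.90, 3.20 and 3.09 at 24 h and 4.52, 4.60 and 4.49 at 72 h, with no overlap between any of the groups. The 24 h call of Slc30a1 (-0.31) was lost without serum replicate 2 or 3, 24 h replicate 2 or 3 or 72 h replicate 1 (-0.34 to -0.20).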

How the results depend on the processing

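Genes changed at 72 h against serum numbered 4518 to 8143 under the alternatives without a fold minimum, against 6429. Of them 46.7% to 49.8% were higher. The 4518 were of 8709 genes tested with the stricter filter, and the 8143 of 19814 tested without a filter, against 12306 in the main fit. With a log2 change of 1 or more 2579 passed (54.4% higher). Leaving out single libraries gave 5503 to 6468. For 72 h against 24 h the 3886 genes became 1587 with only the 6 libraries compared, 2547 with the stricter filter (8709 genes tested) and 1174 with a log2 change of 1 or more, and ran from 2427 without 72 h replicate 1 to 6692 without 24 h replicate 3. Without a filter 4683 passed. With the replicate number as a replicate block 7498 and 5791 genes were called, and 22 ribosomal and 24 respiratory chain genes rose, while 3 proteasome genes rose and 6 fell and 1 replication gene rose and 17 fell. The number was not taken as a pairing, since not every library matched its own number best. Deviations of same-numbered serum and 72 h libraries correlated at 0.05, 0.30 and 0.40. Those of 24 h and 72 h correlated at -0.25, 0.58 and 0.81, and serum replicate 1 correlated best with 72 h replicate 2 (0.21). Replicate 3 did match its own number best between every pair of groups, at 0.40 to 0.81. The main fit leaves this shared structure out, and its cause was not tested.

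Of 335 named genes 280 were called, and 262 of these kept call and direction under every alternative but the fold minimum and, for genes below it, the stricter filter, which left them untested. The genes whose direction changed were not called in the main comparison and lay near 0. With the gene span trend removed they were Acly 0.048, Actn1 0.042, Bmpr1a 0.0071, Cyc1 -0.029, Gsk3a -0.044, Ier2 -0.051, Mlx -0.076, Rybp 0.0044, Socs3 -0.011, Tcl1 -0.055 and Zscan4d -0.055. With quantile normalisation they were Cyc1 -0.060, Pcgf6 0.015, Prdx1 -0.079, Rpl11 -0.029 and Slc16a1 0.023, and with a pseudocount of 1 Cdx2 0.0040. Over the 6 refits without a library the log2 changes ran, for Acly -0.043 to 0.044, Actn1 -0.12 to 0.083, Atp5a1 -0.10 to 0.058, Cdx2 -0.30 to 0.26, Cth -0.0061 to 0.29, Cyc1 -0.23 to 0.30, Fbl -0.13 to 0.0076, Fos -0.34 to 0.14, Gata6 -0.016 to 0.23, Gsk3a -0.022 to 0.088, Ier2 -0.061 to 0.23, Klf5 -0.29 to 0.031, Mcm6 -0.082 to 0.026, Mlx -0.20 to 0.16, Pcgf6 -0.059 to 0.0041, Pcna -0.18 to 0.10, Pgk1 -0.14 to 0.081, Pou5f1 -0.38 to 0.16, Prdx1 -0.14 to 0.38, Psma2 -0.18 to 0.13, Psmc1 -0.060 to 0.043, Rpl11 -0.14 to 0.22, Rybp -0.11 to 0.019, Slc16a1 -0.065 to 0.018, Stag3 -0.088 to 0.41, Stat3 -0.020 to 0.11, Tcl1 -0.038 to 0.13 and Zscan4d -0.20 to 0.17. The cause was not tested. Calls were lost with quantile normalisation for Cnn3 (0.46), Rara (-0.42), Rpl28 (0.25), Rps6 (0.19), Stk31 (0.58) and Tdgf1 (0.30), and with the gene span trend removed for H19 (0.46), and without a filter for Gm4340 (0.52), and without the variance trend for Gm4340 (0.52), and with only the 6 libraries compared for Idi1 (0.44) and Psmd2 (-0.28). Calls were gained with the gene span trend removed for Col4a1 (-0.24), Fasn (-0.62), Krt18 (-0.48) and Lefty2 (-0.36), and without the variance trend for Eomes (0.44), and with only the 6 libraries compared for Eomes (0.44) and Fasn (-0.58), and with a pseudocount of 1 for Eomes (0.28) and Ier3 (-0.26), and with quantile normalisation for Atp5a1 (-0.29), Krt18 (-0.40) and Pou5f1 (-0.38), and with the replicate block for Col4a1 (-0.34), Eomes (0.44), Fasn (-0.58) and Krt18 (-0.40).

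With 3 libraries a group and a median SE of 0.17, small log2 changes can be missed, though 3850 called genes changed by less than 1. The simulated recovery of 11 of 50 changes of 0.5 does not carry over to these data. Far fewer genes were changed there than the 52.2% called here, which makes the adjusted p stricter. Depth per library is unknown, and genes near the floor rest on few reads.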
